A study of Homo sapiens with 4 samples.

Results

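Gene expression in T24 cells after 6 h with protodioscin at 60 µM was compared with that in untreated T24 cells. The comparison rests on 2 of the 4 libraries of the series, 1 on each side, so no value has a replicate, an error or a test, and words such as higher and lower describe these libraries only. Of 60617 gene IDs in the deposited table, 12193 were at 1 FPKM or more in either T24 library and were compared. This filter keeps a gene under 1 FPKM in 1 library only through the other, so it fixes the direction of that gene. FPKM is the number of sequenced fragments per kilobase of transcript, scaled to the size of the library. Differences are given on the log2(FPKM + 1) scale, treated minus untreated, which understates the change of low genes, and the difference stands in parentheses after each pair of levels. Both groups are the same line in the same serum-supplemented RPMI medium. The controls are called untreated and no vehicle is named. Doses are in micromolar in the sample titles and in millimolar, with equal numbers, in the protocol, and the titles were followed here. The series holds a second line, 5637, treated at 70 µM for the same time, and its values are given only beside those of T24, since the doses differ.

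T24 is an established line from a human bladder carcinoma and is known for an activating HRAS mutation. Protodioscin is a furostanol saponin, a glycoside whose sterol-like core is that of diosgenin, found in yams, fenugreek and Tribulus. Saponins of this kind can bind membrane sterols, and cells commonly answer disturbed membranes, adhesion or protein folding through transcription factors that the cell holds ready, such as YAP and TAZ with TEAD, serum response factor (SRF), AP-1, ATF4, NRF2 and the sterol sensor SREBP. Lists of genes known to respond to these factors, of protein complexes and of gene families were therefore used to order the results, 81 lists in all.

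The labelled line was checked against its markers. VIM, a mesenchymal intermediate filament, was at 67.95 FPKM without and 61.4 FPKM with protodioscin (-0.14). N-cadherin (CDH2) was at 48.5 and 45.6 FPKM (-0.086). Untreated 5637 held VIM at 304 FPKM and CDH2 at 33.4 FPKM, so their presence does not tell T24 from 5637. ZEB1 set the lines apart, with levels of 8.46 FPKM in untreated T24 against 0.0702 FPKM in untreated 5637. E-cadherin (CDH1) was at 0.016 FPKM and listed at 0 in T24. The epithelial regulators ESRP1 and GRHL2 were at 0.0217 FPKM or listed at 0 in both T24 libraries. The urothelial transcription factors GATA3 and PPARG were present at 17.6 and 17.4 FPKM (-0.015) and 17.6 and 16.2 FPKM (-0.12), whereas KRT5, KRT20 and the uroplakins UPK1A, UPK1B and UPK3A were listed at 0 in both and UPK2 was at 0.173 FPKM and at 0. HRAS was at 106 and 111 FPKM (0.065). Of the marker lists of other cell types, erythroid cells and fibroblasts had no member at 1 FPKM. Leukocytes had 1 of 12, which was CD68, a gene that shares exons, at 7.08 and 10.5 FPKM (0.51). Endothelial cells had 1 of 9, CDH5 at 1.57 and 0.777 FPKM (-0.53), and basal cells of the 5637 kind had 4 of 14. The summed level of the leukocyte list was 7.85 and 11.5 FPKM untreated and treated, of the endothelial list 2.62 and 1.95 FPKM, of the fibroblast list 1.39 and 1.19 FPKM, of the erythroid list 0.376 FPKM and 0, and of the basal list 796 and 628 FPKM. Of the leukocyte markers 7 were listed at 0 in both libraries, and the part of these markers in any result was not tested.

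The FPKM values of the libraries summed to 325580 untreated and 322821 treated, and the treated library was 1.28 times as deep, judged from the spacing of its lowest values. A single read on a transcript of 1 kb was worth 0.0246 FPKM untreated and 0.0192 FPKM treated. Mitochondrially encoded RNA made up 4.50% of the untreated and 3.74% of the treated sum. The median difference over all compared genes was 0.02, from -0.09 at the 25th percentile to 0.13 at the 75th. Differences above 0 made up 56% of genes and those below 0 made up 44%, which is the background for every list count that follows. A log2 difference of 0.32 or more upward was seen in 517 genes (4.24%) and downward in 654 genes (5.36%). At 2-fold, 25 genes were higher (0.205%) and 34 lower (0.279%). Many of the largest differences belong to genes that share exons with another gene, between which the authors' software divides reads by an estimate. Of 5996 genes that share no exon on either strand, 3 lay 2-fold or more above the untreated level (0.05%) and 9 lay 2-fold or more under it (0.15%). In the same set, 233 genes (3.89%) were higher and 312 (5.2%) lower by 0.32 or more. Protein-coding genes in this set with a mean under 2 FPKM were past 0.32 in 15.8% of cases, against 4.91% of those between 10 and 30 FPKM. The plot of difference by level shows the spread.

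**Figure D1:**
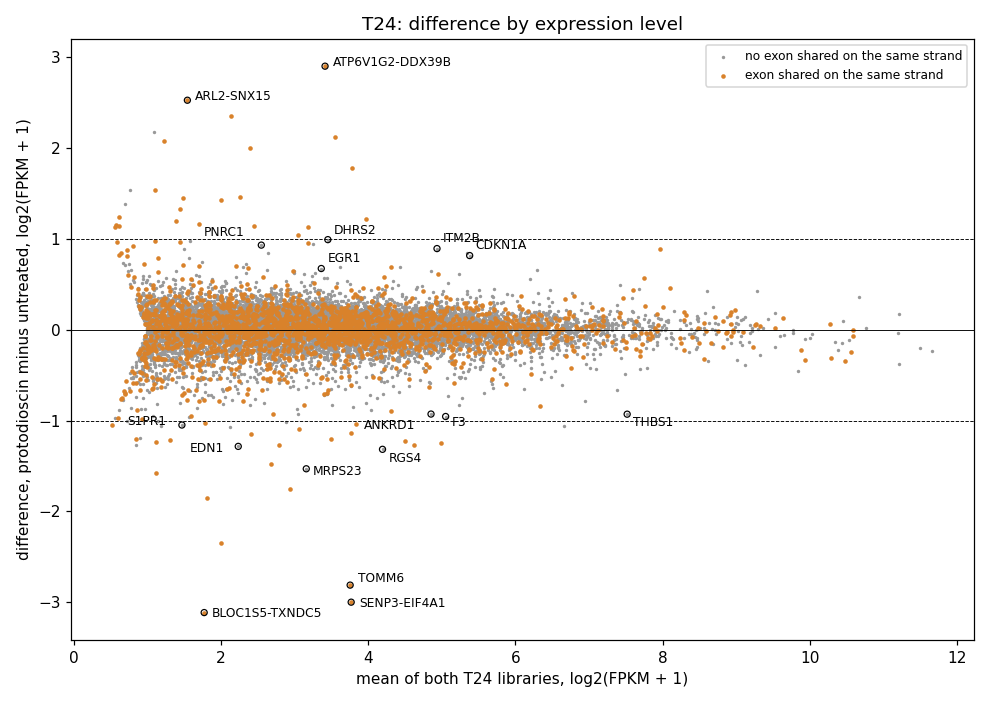
Log2 difference (treated minus untreated, y axis) by the mean log2(FPKM + 1) of both T24 libraries (x axis) for the 12193 compared genes, 1 point a gene, with exon sharing on the same strand in orange, dashed lines at 2-fold and some named genes circled. Most points lie within 0.32 of 0 (90.4% of genes), the spread is wider at low levels, and 44 of the 59 genes past 2-fold share exons on the same strand.

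Promoters of 6 genes are printed first, because each belongs to a list described below and holds a motif known for the factor of that list. They cover the 250 bases before the start site on the strand of the gene, 5′ to 3′, from RefSeq on GRCh38.p14, and capitals mark the motif on either strand. ANKRD1 and CCN2 are YAP and TEAD targets with the TEAD motif GGAATG. CNN2 is an SRF target with a CArG box, IFIT1 and IFIT3 are interferon-stimulated genes with the interferon-stimulated response element (GAAA, any 2 bases, GAAA), and CHAC1 is an ATF4 target with the amino acid response element core TGATGNAA.
ANKRD1 chr10:90921088-90921337 (- strand): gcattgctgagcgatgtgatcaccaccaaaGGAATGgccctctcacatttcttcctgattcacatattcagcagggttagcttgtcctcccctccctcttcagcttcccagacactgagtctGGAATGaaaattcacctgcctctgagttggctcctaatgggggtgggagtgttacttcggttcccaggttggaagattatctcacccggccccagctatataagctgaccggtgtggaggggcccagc
CCN2 chr6:131951373-131951622 (- strand): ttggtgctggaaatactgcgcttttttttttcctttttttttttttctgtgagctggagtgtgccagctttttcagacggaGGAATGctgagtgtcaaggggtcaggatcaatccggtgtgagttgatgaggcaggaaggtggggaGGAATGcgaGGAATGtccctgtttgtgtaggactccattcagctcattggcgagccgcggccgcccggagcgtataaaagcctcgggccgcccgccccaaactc
CNN2 chr19:1026358-1026607 (+ strand): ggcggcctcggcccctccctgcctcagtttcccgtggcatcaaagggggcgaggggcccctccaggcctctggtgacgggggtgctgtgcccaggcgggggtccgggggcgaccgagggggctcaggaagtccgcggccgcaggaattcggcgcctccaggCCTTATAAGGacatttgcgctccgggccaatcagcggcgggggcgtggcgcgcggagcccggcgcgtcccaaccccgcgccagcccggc
IFIT1 chr10:89392373-89392622 (+ strand): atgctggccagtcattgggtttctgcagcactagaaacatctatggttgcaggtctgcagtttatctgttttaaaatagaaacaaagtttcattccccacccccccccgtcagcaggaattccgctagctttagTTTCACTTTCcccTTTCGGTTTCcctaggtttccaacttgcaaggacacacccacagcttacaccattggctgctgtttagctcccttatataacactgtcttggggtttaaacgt
IFIT3 chr10:89327747-89327996 (+ strand): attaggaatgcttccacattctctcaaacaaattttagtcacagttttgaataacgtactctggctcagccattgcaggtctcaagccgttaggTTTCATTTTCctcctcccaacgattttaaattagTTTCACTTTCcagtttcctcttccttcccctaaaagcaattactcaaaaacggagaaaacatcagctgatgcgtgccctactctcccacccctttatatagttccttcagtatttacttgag
CHAC1 chr15:40953221-40953470 (+ strand): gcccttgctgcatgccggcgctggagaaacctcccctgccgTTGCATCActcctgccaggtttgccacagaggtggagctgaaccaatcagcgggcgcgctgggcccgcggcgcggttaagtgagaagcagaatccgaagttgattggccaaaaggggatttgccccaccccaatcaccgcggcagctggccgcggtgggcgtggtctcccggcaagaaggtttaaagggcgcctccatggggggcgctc

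The TEAD motif was found in 8 of 17 members with a promoter entry (47.1%) against 14.3% of all 27305 genes with an entry, any listed start site and both strands counted. The interferon motif was found in 17 of 25 members with a promoter entry (68%) against 3.71% of all 27305 genes, the CArG box in 7 of 20 members with a promoter entry (35%) against 1.44% of all 27305 genes and the amino acid response element core in 4 of 20 members with a promoter entry (20%) against 3.89% of all 27305 genes. A motif is a match of letters in this window and not a bound site. The lists hold known targets and were chosen with earlier results of these data known, so a raised share is no separate support. Of the 8 TEAD list members with the motif, 6 were below 0 and 2 above, and list medians were -0.54 with and 0.0087 without the motif. Medians were 0.23 with and 0.13 without the motif for the interferon motif, -0.19 with and -0.13 without the motif for the CArG box and 0.31 with and 0.12 without the motif for the amino acid response element core. All 7 members with a CArG box were below 0, and 16 of 17 members with the interferon motif and 4 of 4 with the amino acid response element core were above 0. ANKRD1 and CCN2 differed by -0.93 and -0.57, CNN2 by -0.43, IFIT1 and IFIT3 by 0.45 and 0.37, and CHAC1 by 0.47.

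Other motifs were searched in the same windows, and shares are of members with a promoter entry. The antioxidant response element core TGACNNNGC was in 5 of 15 (33.3%, against 13.2% of all genes) among NRF2 genes, and the E-box of the CLEAR kind, known in lysosomal genes, in 4 of 19 (21.1%, against 1.04% of all genes). The CRE and ATF site was in 2 of 17 (11.8%, against 2.03% of all genes) among early-response genes, and the sterol regulatory element core in 1 of 18 (5.56%, against 0.157% of all genes) among sterol genes. The heat shock element was in 5 of 17 (29.4%, against 0.557% of all genes), the NF-kB site in 15 of 19 (78.9%, against 25.8% of all genes) and the CCAAT box, CCAAT, in 18 of 20 (90%, against 37% of all genes) among mitotic genes. Members with the heat shock element were below 0 in 4 of 5 cases, and those with the NF-kB site were divided, 8 above and 7 below. Medians of NRF2 genes were 0.086 with and 0.15 without the motif, of lysosomal genes 0.17 with and 0.10 without the motif, of early-response genes 0.22 with and 0.29 without the motif and of sterol genes 0.075 with and -0.091 without the motif. Those of heat shock proteins were -0.039 with and 0.065 without the motif, of NF-kB targets 0.045 with and -0.18 without the motif and of mitotic genes 0.059 with and 0.0043 without the motif.

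Several targets of YAP and TAZ were lower in treated cells, while others were near or above 0. YAP and TAZ enter the nucleus when cells spread on a stiff surface and act through TEAD factors on genes of matrix, adhesion and growth. Of 21 compared members, 13 were below 0, 9 were lower by 0.32 or more and none was higher by that much, with a median of -0.17. In bulk RNA, fewer cells that express a gene and less of its RNA in each cell cannot be told apart. The median was -0.066 over the members that share no exon, so its size depends on which members are kept. ANKRD1, an ankyrin repeat protein of the nucleus and sarcomere (chr10:90912096-90921276, minus strand), was at 38.9 FPKM without and 19.97 FPKM with protodioscin (-0.93). F3, tissue factor, the cell-surface starter of clotting, was at 45.2 FPKM without and 22.8 FPKM with protodioscin (-0.96). Both are near 2-fold lower and share no exon with another gene. THBS1, the matrix protein thrombospondin, was at 252 FPKM without and 132 FPKM with protodioscin (-0.93), and the secreted matricellular protein CCN1 was at 209 and 132 FPKM (-0.66), with its relative CCN2 at 61.1 and 40.9 FPKM (-0.57). AMOTL2, an inhibitor of YAP and itself a target, was at 61.1 and 41.7 FPKM (-0.54), AJUBA, a LIM protein that restrains the Hippo kinases, at 27.3 and 18.4 FPKM (-0.54), and FJX1, a secreted kinase relative, at 33.6 and 22.3 FPKM (-0.57). These members form the lower side of the list. The 8 members above 0 stayed under a difference of 0.32. TGFB2, a ligand of TGF-beta receptors, was at 12.8 and 7.72 FPKM (-0.66). THBS1 and CCN2 share exons on the opposite strand, and AMOTL2, AJUBA and TGFB2 on the same strand.

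SRF works with its actin-sensing partner MRTF on genes of the contractile cytoskeleton, and 21 of 24 of these were below 0 (median -0.17, 4 past 0.32, none higher by that much). TAGLN, which binds actin filaments, was at 212 FPKM without and 151 FPKM with protodioscin (-0.48). ZYX, a sensor of tension at focal adhesions, was at 107 and 77.9 FPKM (-0.46), CNN2, a calponin, at 158 and 117 FPKM (-0.43), and MYL9, the regulatory light chain of non-muscle myosin, at 70.7 and 56.1 FPKM (-0.33). All these members are abundant, at 56.1 FPKM or more. TAGLN, ZYX and CNN2 have opposite-strand neighbours. PCSK7, opposite TAGLN, was at 19.1 and 19.5 FPKM. Lists of the actin machinery itself were near 0. WAVE and Arp2/3 subunits had a median of 0.013 (12 of 21 above 0) and integrins and focal adhesion -0.019 (9 of 20). Over members that share no exon on either strand, the medians were -0.0051 for WAVE and Arp2/3 subunits (11 genes) and 0.0014 for integrins and focal adhesion (7 genes). NCKAP1, a WAVE subunit, was at 14.6 and 10.2 FPKM (-0.47), and RAPGEF3, a cyclic AMP-activated exchange factor for RAP1, at 6.201 and 3.24 FPKM (-0.76). RHOB, a stress-inducible small GTPase that shares no exon, stood on the other side at 22.1 and 35.2 FPKM (0.64), and RND3, another small GTPase, at 38.5 and 30.3 FPKM (-0.33).

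Mesenchymal genes were below 0 in 11 of 12 cases (median -0.12), though only CAV1, the coat protein of caveolae, passed 0.32, at 149 and 111 FPKM (-0.42). SNAI2, a transcription factor of the mesenchymal state, was at 17.2 and 14.8 FPKM (-0.21). Epithelial and junction genes, few of which T24 expresses strongly, had a median of -0.15 with 6 of 16 lower by 0.32. KRT19, a keratin of simple epithelia that shares no exon, was at 85.7 and 54.2 FPKM (-0.65), and KRT7, the dominant keratin here, was at 1073 and 782 FPKM (-0.46). Without exon-sharing members the list median was 0.017, above 0. Other keratins and keratin-associated genes among the largest differences were KRT80 at 10.4 and 5.003 FPKM (-0.93), KRT34 at 1.91 and 0.648 FPKM (-0.82), KRTAP2-4 at 2.2995 and 0.583 FPKM (-1.06) and KRTAP2-3 at 2.12 and 0.558 FPKM (-1.0004). Of these 4, KRT80 alone was above 3 FPKM in either library, and KRTAP2-3 and KRTAP2-4 are near-identical neighbours whose reads are hard to tell apart. KRT34, KRTAP2-3 and KRTAP2-4 passed the filter only in the untreated library. Matrix proteins and proteases as a whole were near the background (median -0.055, 3 lower and none higher by 0.32). LAMB3, a laminin chain of epithelial basement membrane, was at 71.3 and 46.8 FPKM (-0.60) and PLAU, the urokinase protease, at 47.1 and 34.2 FPKM (-0.45). PLAU has an opposite-strand neighbour and LAMB3 shares exons on its own strand.

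Receptors and ligands of G-protein signalling held several of the largest differences among genes that share no exon. The list of 19 had a median of -0.085, with 7 lower and none higher by 0.32. RGS4, which switches off Gq and Gi signals (chr1:163068775-163076802), was at 27.9 FPKM without and 10.6 FPKM with protodioscin (-1.32). EDN1, the vasoconstrictor endothelin-1 (chr6:12290363-12297194), was at 6.35 FPKM without and 2.02 FPKM with protodioscin (-1.28), and S1PR1, a sphingosine-1-phosphate receptor (chr1:101236865-101243713), was at 2.99 FPKM without and 0.927 FPKM with protodioscin (-1.05). These 3 genes were past 2-fold, and S1PR1 passed the filter only in the untreated library. The prostaglandin E2 receptor PTGER4 was at 6.76 and 3.94 FPKM (-0.65), the nucleotide receptor P2RY2 at 2.13 and 1.303 FPKM (-0.44) and the lysophosphatidic acid receptor LPAR1 at 37.7 and 29.4 FPKM (-0.34). The G-protein alpha subunits GNAS, GNAQ and GNAI2, named after their values were seen, were at differences of -0.010, 0.072 and 0.11. Without members that share exons, the median was -0.14 for the list (16 genes).

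Secreted growth and immune factors were also among the lower genes. FST, follistatin, which traps activins, was at 49.01 FPKM without and 27.1 FPKM with protodioscin (-0.83), and DKK1, a secreted Wnt inhibitor with an opposite-strand neighbour, at 161 and 93.2 FPKM (-0.78). IL7R, the interleukin-7 receptor, was at 19.7 and 10.9 FPKM (-0.80), MPZL2, an adhesion protein of epithelia, at 21.2 and 11.1 FPKM (-0.88) and MYEOV at 6.04 and 2.96 FPKM (-0.83). HBEGF, a ligand of the EGF receptor, was at 16.5 and 10.7 FPKM (-0.58) and EREG, epiregulin, at 39.8 and 30.5 FPKM (-0.37), while the EGFR list as a whole had a median of -0.010 (-0.27 over its members that share no exon). IGFBP5, which binds insulin-like growth factors and shares exons on the opposite strand, was at 9.46 and 4.18 FPKM (-1.02), and the IGF list had a median of 0.066. The LY6 surface proteins LYPD1 and LYPD3 were at 106 and 73.4 FPKM (-0.52) and 5.97 and 4.11 FPKM (-0.45), in a list of 7 with a median of -0.21. The Wnt list had a median of 0.023, the Notch list 0.13 and TGF-beta targets 0.037. In the last, TAGLN lay lowest and ID2, an inhibitor of helix-loop-helix factors with an opposite-strand neighbour, highest at 0.785 and 1.51 FPKM (0.49). ID2 passed the filter only in the treated library. Leaving out exon-sharing members, the medians were -0.13 for the LY6 list (3 genes), 0.0053 for the Wnt list (14 genes) and 0.00019 for TGF-beta targets (12 genes).

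Early-response transcription factors went both ways. Immediate early and AP-1 genes lay at a median of 0.25, with 15 of 21 above 0, 6 higher and 2 lower by 0.32. EGR1, a zinc finger factor that mitogens and stress induce within minutes (chr5:138465490-138469315), was at 7.15 FPKM without and 12.002 FPKM with protodioscin (0.67). FOS, the partner of JUN in AP-1, was low in both libraries at 1.57 and 2.89 FPKM (0.60), which is roughly 52.1 reads untreated and 123 treated. ATF3, a stress-induced factor, was at 6.81 and 10.01 FPKM (0.50). The opposite side was held by MYC, the growth-promoting transcription factor, at 42.8 FPKM without and 25.5 FPKM with protodioscin (-0.73), and by FOSL1, the main FOS relative in these cells, at 254 and 189 FPKM (-0.42). FOSL1 is the most abundant of these genes and FOS the least. Feedback inhibitors of ERK signalling were near 0 as a list (median -0.032), with DUSP4 at 22.9 and 15.6 FPKM (-0.52), DUSP1 at 67.4 and 46.7 FPKM (-0.52) and the receptor kinase EPHA2 at 97.9 and 70.5 FPKM (-0.47) lower and SPRY1, at 0.836 and 1.66 FPKM (0.53), higher. SPRY1 passed the filter only in the treated library. RAS GTPases and their effectors, a list that holds the mutated HRAS of this line, had a median of 0.053 with none of 27 past 0.32. CCND1, a cyclin that ERK and YAP signals induce, was at 239 and 177 FPKM (-0.44). It overlaps LTO1 on the opposite strand, which was at 9.22 and 8.31 FPKM. Counting members free of exon sharing alone, the median was -0.069 for ERK feedback genes (13 genes).

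NF-kB targets and inflammatory cytokines were evenly divided (11 of 22 above 0, median 0.012), with 4 higher and 3 lower by 0.32. NFKBIA, the inhibitor that NF-kB induces to end its own signal, was at 29.5 FPKM without and 45.6 FPKM with protodioscin (0.61), whereas TNFAIP3, another induced brake of the pathway, was at 21.6 FPKM without and 12.5 FPKM with protodioscin (-0.75). The brakes therefore differed in opposite directions. SOD2, the mitochondrial superoxide dismutase and an NF-kB target, was at 23.9 and 37.1 FPKM (0.61), and IL1B, interleukin-1 beta, at 22.6 and 13.5 FPKM (-0.71). TNFAIP3 overlaps a gene on the opposite strand and SOD2 shares exons on its own strand. In the members with no shared exon, the median was -0.021 for the NF-kB list (15 genes).

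Genes of the interferon response were mostly higher in treated cells by small amounts. Interferons act through STAT proteins and IRF9 on the response element printed above, and T24 already expressed most of these genes without treatment. Of 30 compared members, 27 were above 0, with a median of 0.17, 4 higher by 0.32 and none lower by that much. IFIT1, which binds foreign RNA caps (chr10:89392546-89406486), was at 43.8 FPKM without and 60.1 FPKM with protodioscin (0.45). Its neighbour IFIT3 was at 43.9 and 57.2 FPKM (0.37), OAS1, which senses double-stranded RNA, at 39.3 and 50.9 FPKM (0.37) and PARP9, an ADP-ribosyltransferase relative, at 31.8 and 40.5 FPKM (0.34). The opposite-strand neighbour of OAS1 was listed at 0 in both libraries, and DTX3L, opposite PARP9, was at 27.4 and 34.3 FPKM. The 3 members below 0 were ISG20, STAT2 and IRF1, at -0.23, -0.15 and -0.055, named after their values were seen. Genes of antigen presentation by MHC class I followed the same direction, with 13 of 15 above 0 and a median of 0.14. TAP1, which pumps peptides into the endoplasmic reticulum, was at 18.3 and 23.9 FPKM (0.37). SLFN5, an interferon-induced protein that shares no exon, was at 15.98 FPKM without and 26.3 FPKM with protodioscin (0.69).

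Histone genes were above 0 in 16 of 17 cases (median 0.25), and 7 passed 0.32 with none lower by that much. Most histone messages end without a poly(A) tail, so a polyadenylated library holds a small and variable part of them. H2BC5 was at 3.66 FPKM without and 7.38 FPKM with protodioscin (0.85), H2BC4 at 2.49 and 4.01 FPKM (0.52) and H2BC11 at 0.652 and 1.42 FPKM (0.55), each from a low level. H2BC11 passed the filter only in the treated library. The linker histones, which bind DNA between nucleosomes, were represented by the more abundant H1-10, at 59.6 and 88.4 FPKM (0.56). Without a filter on low genes the median of all annotated histone genes was 0.070. Lists of noncoding RNA that hold some members without a poly(A) tail had medians below 0. The list of non-polyadenylated and nuclear RNAs had a median of -0.31 (14 of 15 below 0), and 12 members share exons on the same strand. Small nucleolar RNAs had a median of -0.33 (15 of 19 below 0). The part of poly(A) tails in these differences was not tested.

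Subunits of the SWI/SNF remodelling complex were above 0 in 17 of 21 cases (median 0.11), and SMARCB1, its core subunit, was alone past 0.32, at 29.2 FPKM without and 53.3 FPKM with protodioscin (0.85). SMARCB1 overlaps DERL3 on the opposite strand, which was at 0.709 and 0.944 FPKM. ARID1B and ARID2, DNA-binding subunits, were at 14.2 and 17.6 FPKM (0.29) and 5.02 and 6.27 FPKM (0.27). Chromatin enzymes had a median of 0.10 with 18 of 23 above 0. PHF21A, a reader of unmethylated histone H3 in the LSD1 complex that shares no exon, was at 5.42 and 8.896 FPKM (0.62). Nuclear receptors and coactivators had a median of 0.075, led by PNRC1 at 3.24 FPKM without and 7.09 FPKM with protodioscin (0.93). Clock genes had a median of 0.082 and none past 0.32, and glucocorticoid receptor targets 0.18 with 3 higher (MT2A, ZFP36 and KLF9) and 2 lower (DUSP1 and SGK1). SGK1, a kinase of ion transport, was at 15.7 and 11.2 FPKM (-0.46), and MT2A, a metal-binding protein, at 1433 and 1838 FPKM (0.36). Over members that share no exon on either strand, the median was 0.15 for nuclear receptors and coactivators (9 genes).

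Stress pathways of protein folding and redox were mostly above 0 and small. ATF4 and CHOP, the transcription factors of the integrated stress response, raise genes of amino acid supply and of cell death. Their targets had a median of 0.12, 19 of 24 above 0 and 5 higher by 0.32. ATF3 is one of them, and CHAC1, which degrades glutathione (chr15:40952962-40956519), was at 3.67 FPKM without and 5.47 FPKM with protodioscin (0.47). DDIT4, an inhibitor of mTORC1, was at 16.9 and 24.1 FPKM (0.49), SLC7A11, the cystine importer, at 3.39 and 4.76 FPKM (0.39) and CEBPB at 31.9 and 40.4 FPKM (0.33). DDIT3, which encodes CHOP itself, was at 5.42 and 5.89 FPKM (0.10). Chaperones of the endoplasmic reticulum were above 0 in 22 of 24 cases with a median of 0.091 and none past 0.32. The list of heat shock proteins, not limited to those of the cytosol, had a median of 0.011. The inducible HSPA1A was at 175 and 238 FPKM (0.44) and its near-identical copy HSPA1B at 165 and 224 FPKM (0.44). Reads of these copies cannot be told apart with certainty. Without members that share exons, the median was 0.054 for heat shock proteins (9 genes).

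Of the NRF2 antioxidant genes, 19 of 21 were above 0 (median 0.15, 2 past 0.32). HMOX1, haem oxygenase, was at 5.16 and 6.001 FPKM (0.18), NQO1, a quinone reductase, at 71.9 and 82.3 FPKM (0.19) and AKR1C1, an aldo-keto reductase, at 2.63 and 3.598 FPKM (0.34). Reactive oxygen defence genes were split, with 3 higher and 3 lower by 0.32. GPX1, which reduces hydrogen peroxide, and SOD2 were higher, at 144 and 203 FPKM (0.49) and 23.9 and 37.1 FPKM (0.61), while the glutaredoxins GLRX3 and GLRX2 were lower, at 20.8 and 14.1 FPKM (-0.53) and 7.804 and 5.17 FPKM (-0.51). GLRX2 overlaps RO60 on the opposite strand. Metallothioneins and zinc transporters were above 0 in 10 of 11 cases (median 0.10). Short-chain dehydrogenases and xenobiotic enzymes had a median of 0.054 with 3 higher by 0.32. DHRS2, a dicarbonyl reductase (chr14:23630115-23645639), was at 6.77 FPKM without and 14.4 FPKM with protodioscin (0.99), DHRS3, which reduces retinal, at 6.395 and 9.303 FPKM (0.48) and EPHX1, which hydrolyses epoxides, at 18.3 and 24.3 FPKM (0.39). Leaving out exon-sharing members, the medians were 0.083 for NRF2 genes (12 genes), 0.062 for metallothioneins and zinc transporters (8 genes) and 0.11 for short-chain dehydrogenases and xenobiotic enzymes (6 genes).

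Lysosome and autophagy genes were above 0 in 22 of 26 cases (median 0.13), 3 of them by 0.32. WIPI1, which binds phosphoinositides on forming autophagosomes, was at 6.07 FPKM without and 9.19 FPKM with protodioscin (0.53). GABARAPL1, an ATG8 protein of the autophagosome membrane, was at 5.02 and 7.13 FPKM (0.43), ATP6V0D1, a subunit of the proton pump that acidifies lysosomes, at 53.1 and 69.4 FPKM (0.38) and SQSTM1, the cargo receptor p62, at 80.5 and 99.9 FPKM (0.31). WIPI1, GABARAPL1 and SQSTM1 have opposite-strand neighbours, of which that of GABARAPL1 was listed at 0 in both libraries. ATP6V0D1 shares no exon. Subunits of the vacuolar ATPase together had a median of 0.056, RAB GTPases 0.087 (32 of 45 above 0) and the mTOR pathway 0.051. RAB40B, a substrate receptor of ubiquitin ligases, was at 1.09 and 2.27 FPKM (0.65). Membrane repair and endosomal sorting genes had a median of 0.043, with the ESCRT subunit CHMP4A, which shares exons on its own strand, at 14.6 and 24.2 FPKM (0.69). Ion pumps and volume regulators had a median of -0.032. Counting members free of exon sharing alone, the medians were 0.073 for lysosome and autophagy genes (13 genes), -0.00020 for the vacuolar ATPase (6 genes), 0.0082 for RAB GTPases (21 genes) and -0.011 for ion pumps (6 genes).

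**Figure D2:**
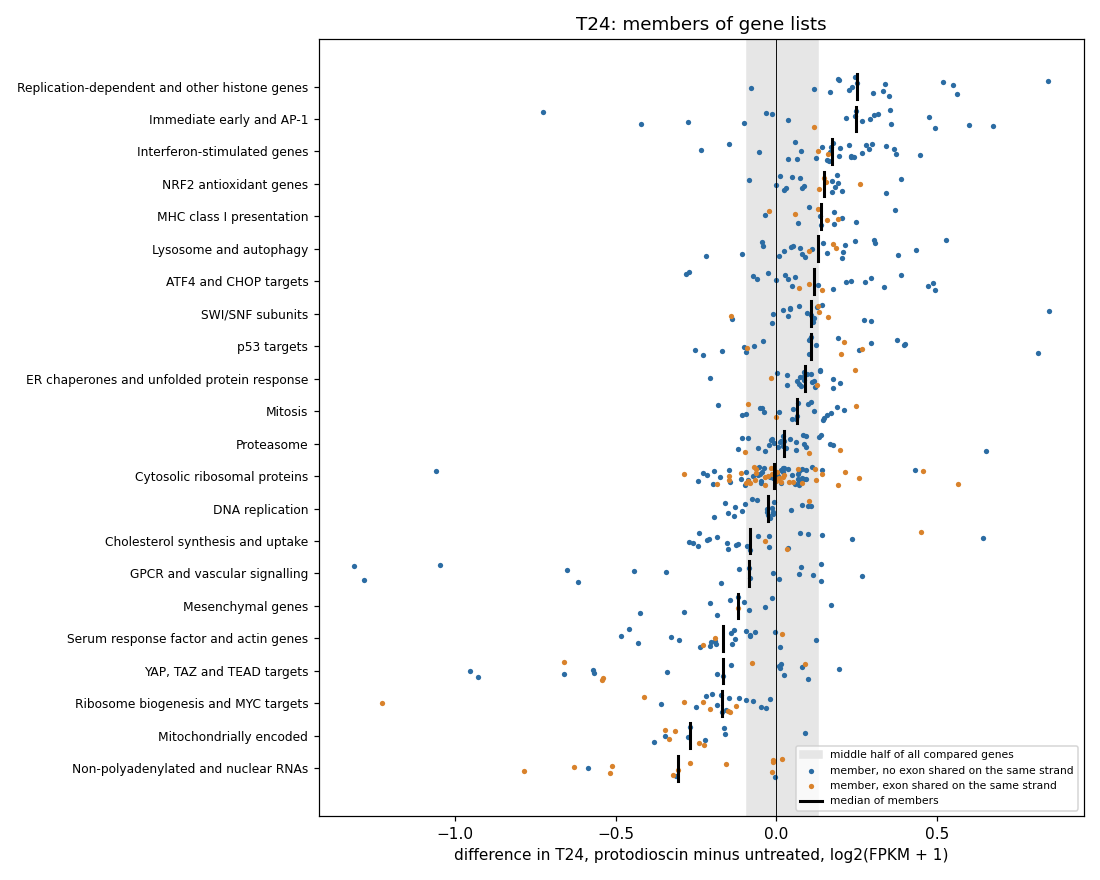
Log2 differences (treated minus untreated, x axis) of the compared members of 22 gene lists (y axis), 1 point a member, orange where it shares exons on the same strand, with a black bar at the median of each list and a grey band over the 25th to 75th percentile of all genes (-0.09 to 0.13). Interferon-stimulated genes (median 0.17), early-response genes (0.25) and histone genes (0.25) lie mostly to the right of 0, and YAP targets (-0.17), SRF targets (-0.17) and ribosome biogenesis genes (-0.17) mostly to the left.

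Sterol genes lay slightly below 0 and none was lower by 0.32. When sterols run low in the endoplasmic reticulum, SREBP2 raises the genes of sterol synthesis and uptake together. Of 25 compared genes of cholesterol synthesis and uptake, 17 were below 0, with a median of -0.083. INSIG1, which retains SREBP in the endoplasmic reticulum, was at 8.91 FPKM without and 7.21 FPKM with protodioscin (-0.27), within 0.32 of 0. MVK, mevalonate kinase, and TM7SF2, a sterol reductase, were higher at 5.35 and 8.92 FPKM (0.64) and 3.46 and 5.098 FPKM (0.45), and share exons on the opposite and the same strand. Liver X receptor targets, which export sterols, had a median of 0.10 over 9 genes (-0.041 without exon-sharing members), with MYLIP, a ubiquitin ligase induced by sterols, at 1.19 and 2.11 FPKM (0.50). Fatty acid synthesis had a median of -0.0075 and fatty acid oxidation 0.0047, with none past 0.32. In the members with no shared exon, the medians were -0.024 for cholesterol genes (11 genes), 0.081 for fatty acid synthesis (9 genes) and 0.031 for fatty acid oxidation (10 genes).

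Central carbon metabolism and respiration stayed near the median of all genes. Glycolysis and hypoxia genes had a median of -0.011, the citric acid cycle 0.0036, and the nuclear-encoded subunits of complex I 0.028, of cytochrome oxidase and complex III 0.042 and of ATP synthase 0.016. Over members that share no exon on either strand, the medians were 0.013 for glycolysis (10 genes), 0.0082 for the citric acid cycle (13 genes), 0.069 for complex I (15 genes) and -0.021 for cytochrome oxidase and complex III (11 genes). ME2, the mitochondrial malic enzyme, was at 14.6 and 20.3 FPKM (0.45) and FH, fumarate hydratase, at 52.5 and 40.8 FPKM (-0.36). The complex I subunit NDUFS6 was at 44.3 and 30.5 FPKM (-0.52). Transcripts of the mitochondrial genome itself were lower, with 12 of 13 below 0 and a median of -0.27. Their poly(A) tails are short, and their share of the FPKM sum was 4.50% untreated and 3.74% treated. The part of this shift in other results was not tested.

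Ribosome biogenesis genes and other MYC targets were below 0 in all 23 compared cases (median -0.17), of which 3 passed 0.32. MYC is known to drive these genes in growing cells. MYC itself was lower, at -0.73, and its part in the list was not tested. NOP56, of the box C/D small nucleolar particles, was at 226 and 185 FPKM (-0.29), RRS1, an assembly factor of the large subunit, at 43.3 and 32.3 FPKM (-0.41) and NOP16 at 27.9 and 21.5 FPKM (-0.36). NOP2, an rRNA methyltransferase, was at 33.7 and 13.8 FPKM (-1.23), and the overlapping ENSG00000285238 was at 0.952 and 8.98 FPKM, so that the pair summed to 34.6 and 22.8 FPKM (-0.58). ENSG00000285238 also shares exons with CHD4, at 60.6 and 58.1 FPKM. With CHD4 included the sum was 95.2 and 80.9 FPKM (-0.23), within 0.32 of 0. The abundant nucleolar proteins NPM1 and NCL differed by -0.072 and -0.049 and were named after their values were seen. Small nucleolar RNAs, whose proteins several of these genes encode, had a median of -0.33, but they are short and few reads cover them. With median-ratio scaling the list median was -0.20.

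Genes of the ribosomes themselves lay near the median of all genes. The 84 cytosolic ribosomal protein genes had a median of -0.0059, with 41 above and 43 below 0, and the 78 mitochondrial ones -0.033. RPS23 was at 145 and 68.8 FPKM (-1.06), with an opposite-strand neighbour, and RPL13, which shares an exon with the small nucleolar RNA SNORD68, was at 175 and 259 FPKM (0.56). MRPS23 was at 14.2 FPKM without and 4.26 FPKM with protodioscin (-1.53), the largest difference downward among genes that share no exon, and the mitochondrial ribosomal gene next to it in the list, MRPS36, was at 4.85 and 3.69 FPKM (-0.32). Translation factors had a median of -0.048 (17 of 24 below 0), aminoacyl-tRNA synthetases -0.051 and splicing regulators of the SR and hnRNP families -0.065 (21 of 29 below 0). The proteasome had a median of 0.023, with PSMA4, a subunit of its core ring that shares no exon, at 61.4 FPKM without and 97.3 FPKM with protodioscin (0.65), alone past 0.32 among 31 subunits. Without members that share exons, the median was -0.018 for cytosolic ribosomal proteins (31 genes).

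Among cell cycle genes CDKN1A stood apart, and the machinery of replication and mitosis differed little. CDKN1A, the p53-induced inhibitor p21, was at 30.4 FPKM without and 54.2 FPKM with protodioscin (0.82). Its opposite-strand neighbour DINOL was listed at 0 in both T24 libraries. The inhibitors of CDK4 and CDK6 CDKN2C and CDKN2D were at 38.7 and 48.4 FPKM (0.31) and 7.91 and 10.04 FPKM (0.31), short of 0.32. CCNG2, an unconventional cyclin found in cells that leave the cycle and free of exon sharing, was at 3.06 FPKM without and 5.28 FPKM with protodioscin (0.63). Replication genes were below 0 in 17 of 22 cases (median -0.027) and mitotic genes above 0 in 16 of 24 (median 0.064), and in neither list did any gene pass 0.32. Targets of p53 had a median of 0.11 with 15 of 23 above 0 and 4 past 0.32, against 0 lower. RRM2B, the p53-induced ribonucleotide reductase subunit, was at 5.04 and 6.96 FPKM (0.40), TP53INP1, which promotes autophagy and cell death, at 0.7096 and 1.22 FPKM (0.38) and SESN1, a stress-induced inhibitor of mTORC1, at 1.34 and 2.09 FPKM (0.40). TP53INP1 passed the filter only in the treated library. DNA repair genes had a median of -0.065. Leaving out exon-sharing members, the medians were 0.10 for mitotic genes (15 genes) and 0.013 for DNA repair genes (7 genes).

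Listed genes of apoptosis differed little at 6 h. Outside these lists, TNFRSF6B, a decoy receptor of FAS ligand that shares exons, was at 13.1 and 3.18 FPKM (-1.76) and is described with its locus below. The BCL2 family had a median of 0.016 over 13 genes, with the BH3-only killers BMF and BCL2L11 at 0.971 and 1.502 FPKM (0.34) and 2.15 and 2.93 FPKM (0.32) past 0.32 and the survival protein BCL2L1 at 86.1 and 71.9 FPKM (-0.26). All 3 have opposite-strand neighbours, and BMF passed the filter only in the treated library. Death receptors and caspases had a median of 0.089 with none of 22 past 0.32. CFLAR, which blocks caspase-8, was at 6.28 and 4.86 FPKM (-0.31) and BIRC3, an inhibitor of apoptosis that NF-kB induces, at 1.09 and 1.55 FPKM (0.28). Counting members free of exon sharing alone, the medians were -0.050 for the BCL2 family (4 genes) and 0.035 for death receptors and caspases (10 genes). Other genes without exon sharing that were among the largest upward were ITM2B, a membrane protein processed to amyloidogenic peptides in rare dementias, at 21.4 FPKM without and 40.7 FPKM with protodioscin (0.89), ZDHHC3, a palmitoyltransferase of the Golgi, at 5.86 and 12.2 FPKM (0.94), the pseudokinase TRIB2 at 3.92 and 6.77 FPKM (0.66) and AAK1, a kinase of clathrin adaptors, at 6.07 and 9.79 FPKM (0.61). RTTN, a centriole protein, was at 4.82 and 2.398 FPKM (-0.78) on the lower side.

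**Figure D3:**
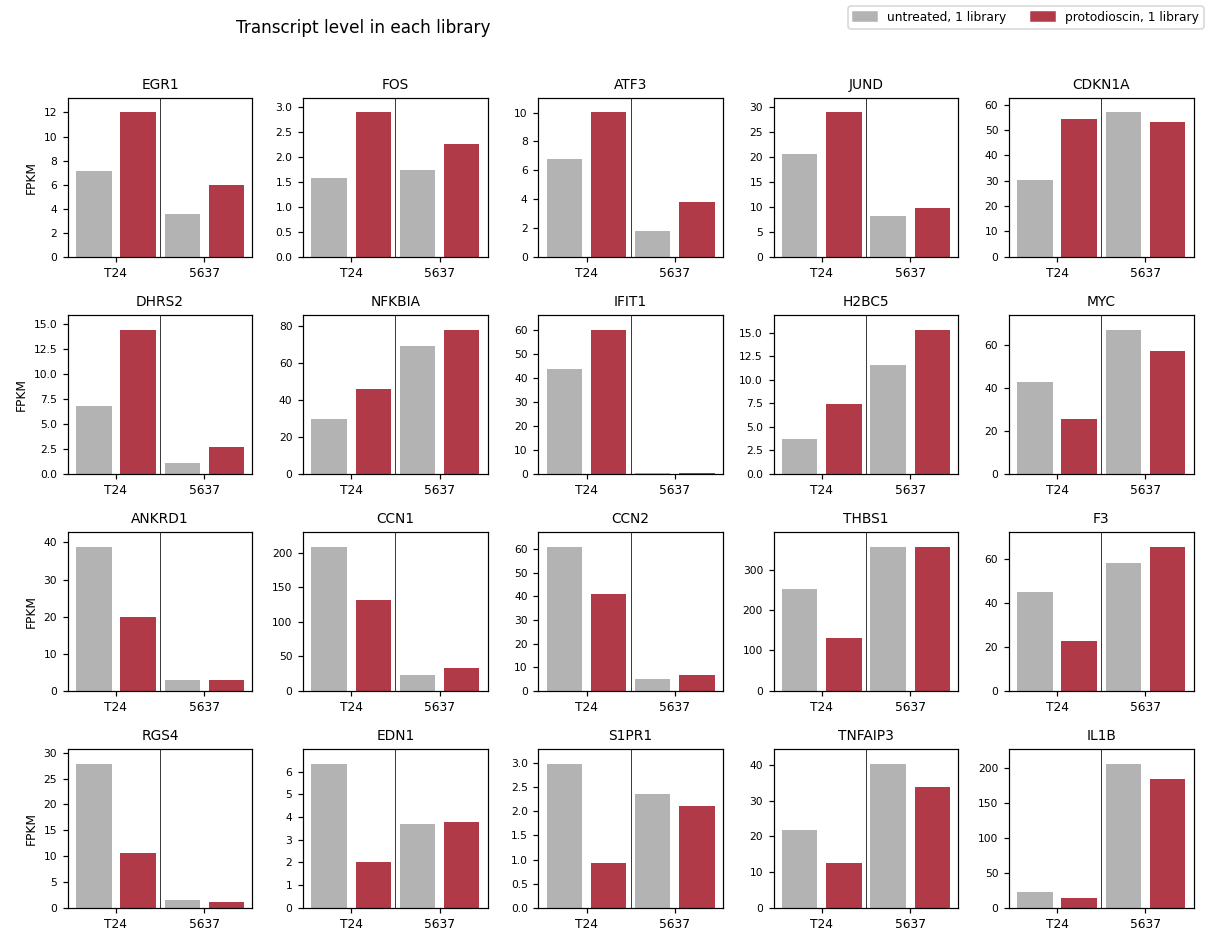
FPKM (y axis, linear, from 0) of 20 named genes, 1 panel a gene, in untreated (grey) and treated (red) T24 and, beside them, 5637. Each bar is 1 library, so there are no error bars. RGS4 (27.9 to 10.6 FPKM) and EDN1 (6.35 to 2.02 FPKM) were lower in treated T24 and DHRS2 (6.77 to 14.4 FPKM) and CDKN1A (30.4 to 54.2 FPKM) were higher.

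Broad families served as a background of their own. Zinc finger genes named ZNF had a median of 0.026 over 378 genes, solute carriers 0.026 over 179, ubiquitin-conjugating enzymes 0.032 over 32 and tubulins 0.024 over 15, all close to the median of all genes. S100 proteins and annexins had a median of -0.0027 and urothelial differentiation genes -0.038 over 5 genes. Noncoding classes had medians below 0. Antisense RNA genes had a median of -0.088 (85 of 131 below 0), long intergenic RNAs -0.048 (48 of 80) and microRNA genes -0.20 (18 of 33). For microRNA genes the median was 0.43, above 0, over the 3 at 5 FPKM or more. In the members with no shared exon, the medians were 0.050 for ubiquitin-conjugating enzymes (21 genes), 0.010 for tubulins (3 genes), -0.059 for S100 proteins and annexins (14 genes), -0.12 for urothelial genes (3 genes), -0.11 for microRNA genes (28 genes) and -0.13 for long intergenic RNAs (38 genes). Clustered protocadherins had a median of 0.23, and all 15 share exons, since each joins its own first exon to common ones.

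The largest differences of all belonged to genes that share exons. Of the 59 genes past 2-fold (0.484% of all), 44 (74.6%) shared exons with a gene on the same strand, against 18.3% of compared genes. To see how much of such a difference belongs to the locus, FPKM was summed over each of the 44 genes and every gene it shares exons with. The sums were added after the values were seen, and FPKM of genes of different length add only roughly, so they are a description. Of the 44 sums, 34 were within a difference of 0.32 and 3 remained past 2-fold, and the median size of the difference was 1.255 for the genes and 0.15 for the sums. The read-through gene ATP6V1G2-DDX39B was at 2.902 and 28.2 FPKM (2.902), while DDX39B, an RNA helicase of mRNA export, was at 107 and 59.2 FPKM, and the locus summed to 109.97 and 87.5 FPKM (-0.33). SENP3-EIF4A1 was at 37.6 and 3.82 FPKM (-2.999), against a locus sum of 623 and 583 FPKM (-0.10) that is nearly all EIF4A1, a helicase of translation initiation. BLOC1S5-TXNDC5 was at 9.06 and 0.162 FPKM (-3.11), with a locus sum of 71.9 and 70.8 FPKM (-0.022), and ARL2-SNX15 at 0.216 and 6.01 FPKM (2.53), with a locus sum of 76.2 and 76.6 FPKM (0.0075).

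Some loci differed as a whole. TOMM6, a small subunit of the mitochondrial import pore, was at 34.8 and 4.099 FPKM (-2.81). The gene ENSG00000124593, which shares its exons, was at 4.74 and 10.8 FPKM, and both summed to 39.5 and 14.9 FPKM (-1.35). TNFRSF6B, a decoy receptor that binds FAS ligand, was at 13.1 and 3.18 FPKM (-1.76) and its locus, with RTEL1-TNFRSF6B, summed to 17.3 and 8.35 FPKM (-0.97). CHKB, a choline kinase, was at 16.1 and 6.42 FPKM (-1.204) and summed to 21.01 and 12.2 FPKM (-0.73) with CHKB-CPT1B, and CCDC9B, whose only partner is a pseudogene near 0, was at 19.4 and 8.97 FPKM (-1.03). TBCE, a tubulin-folding cofactor, was at 2.66 and 7.099 FPKM (1.15), but its locus summed to 9.64 and 9.66 FPKM (0.0033). CHKB and CCDC9B were named after their values were seen.

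In 5637, with 70 µM for 6 h, the same measures are given side by side, and the difference between the lines was not tested. There, 12635 genes were compared, of which 610 were higher (4.83%) and 513 lower (4.06%) by 0.32, and 61.5% were above 0. The median of YAP targets was 0.025 in 5637 and -0.17 in T24, that of SRF targets -0.064 and -0.17, and that of ribosome biogenesis genes -0.0023 and -0.17. For early-response genes it was -0.011 in 5637 and 0.25 in T24, for interferon-stimulated genes 0.051 and 0.17, and for histone genes 0.23 and 0.25. Of these 6 lists, histone genes were above 0.1 in both lines. EGR1 was at 3.58 and 5.99 FPKM (0.61) in 5637, ATF3 at 1.81 and 3.804 FPKM (0.77) and DHRS2 at 1.0997 and 2.66 FPKM (0.80), all higher as in T24. CCN1 was at 22.8 and 33.7 FPKM (0.54) and CCN2 at 4.85 and 6.58 FPKM (0.37), higher in 5637 and lower in T24. RGS4 was at 1.55 and 1.19 FPKM (-0.22), EDN1 at 3.68 and 3.78 FPKM (0.033), ANKRD1 at 2.96 and 2.97 FPKM (0.0017) and IFIT1 at 0.167 and 0.132 FPKM (-0.044) in 5637. CDKN1A was at 56.9 and 53.01 FPKM (-0.10) there and MYC at 67.2 and 56.99 FPKM (-0.23).

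**Figure D4:**
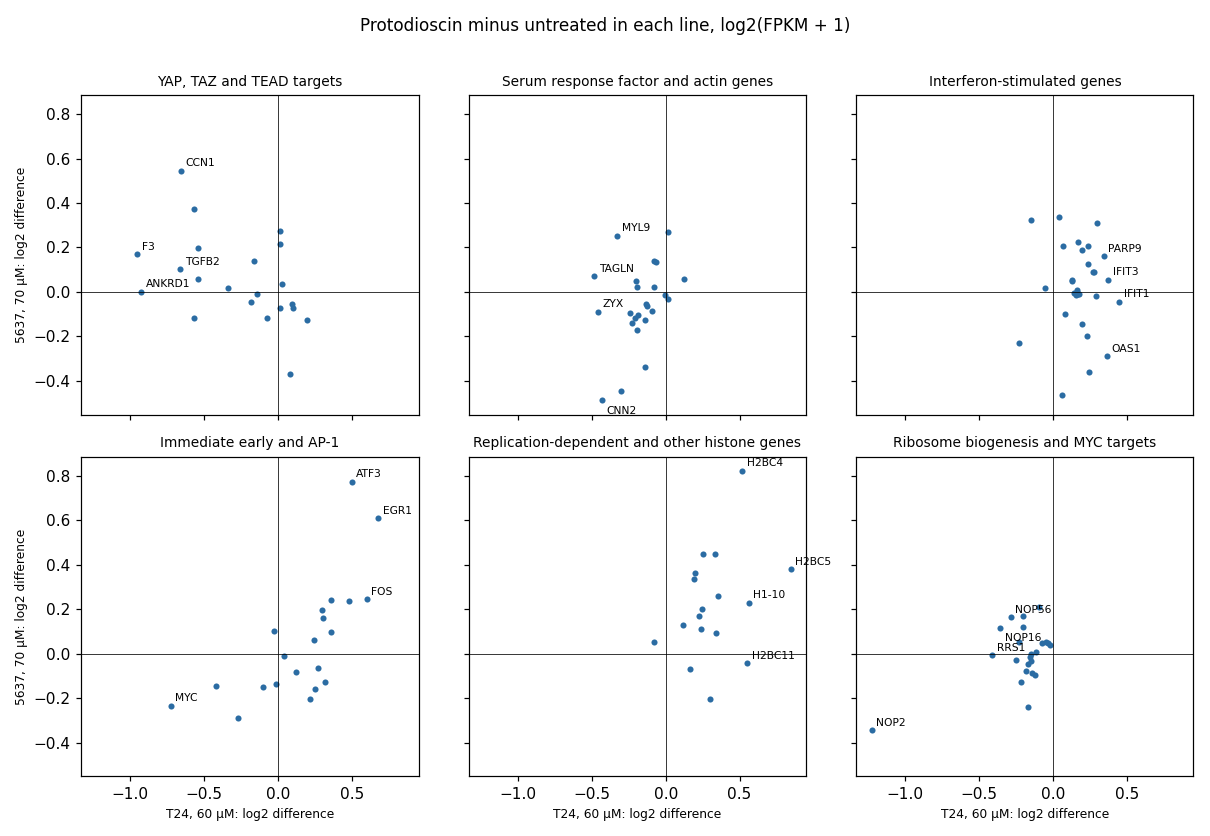
Log2 difference in T24 (x axis, 60 µM) and in 5637 (y axis, 70 µM) for members of 6 lists. Each point is 1 gene compared in T24, and the 4 genes of largest difference in T24 are labelled. Genes under 1 FPKM in 5637 are plotted too, and of the interferon-stimulated genes 30 were compared in T24 and 24 in 5637. CCN1 (-0.66 in T24 and 0.54 in 5637) stands in the upper left of the YAP panel, and EGR1 and ATF3 stand in the upper right of the early-response panel.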

How the data were processed

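The authors deposited gene-level FPKM for 4 libraries of polyadenylated RNA, made without strand with the TruSeq v2 kit and read in pairs of 150 bases on a HiSeq2500, per the labels' protocols. Trimmomatic, HISAT2, StringTie and GRCh38 are named per the submitters' processing notes. The sources used here do not give settings, versions or the annotation. Genes at 1 FPKM or more in either T24 library were kept and compared as log2(FPKM + 1), with pandas 2.3.3 on Python 3.11.15. Exon sharing and gene types came from GENCODE 29 with bedtools 2.31.1, where 58542 of 60617 IDs were found. Each list was described by its median and by counts above 0 and past 0.32. The scripts were tested on simulated data. Whole reads could be recovered for only part of the genes, and a count model was therefore not fitted. Promoters were searched in the 250 bases before every listed start. Members, lists and motifs were chosen with earlier results of these data known.

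Genes named are the 15 protein-coding genes without exon sharing with the largest difference each way, up to 4 members of each list with the largest difference, the 8 exon-sharing genes largest each way, 18 fixed genes, and members of symbol families. AJUBA, AMOTL2, CDKN2D, CEBPB, FJX1, FOSL1, LPAR1 and P2RY2 were named after their values were seen. Alternatives were the pseudocount, the filter, the scaling and leaving out exon-sharing genes. Values of some list members are not reported here.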

Additional observations from a re-analysis of the deposited data

Results flagged for a closer look

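Results listed here had a difference of 0.32 or more in size in both lines (0.1 for list medians) with opposite signs in T24 and 5637. With 1 library a group, the difference between the lines was not tested, and the doses differed. The groups are 20 genes and 4 lists.

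Among genes that share no exon on the same strand, the matricellular genes CCN1 and CCN2 differed by -0.66 and -0.57 in T24 and by 0.54 and 0.37 in 5637. The glutaredoxins GLRX2 and GLRX3 differed by -0.51 and -0.53 in T24 and by 0.80 and 0.68 in 5637. In the other direction, RHOB was at 0.64 and -0.39, the ERK inhibitor SPRY1 at 0.53 and -0.44 and the mTORC1 inhibitor DDIT4 at 0.49 and -0.36 in T24 and 5637. Lower in T24 and higher in 5637 were the mitochondrial MT-ND1 at -0.35 and 0.34, the signal recognition particle RNA gene RN7SL2 at -0.59 and 0.73, SNORD101 at -1.27 and 0.59 and SNORD14A at -1.19 and 0.75. Exons overlapping another same-strand gene were held by MT-CO3 at -0.33 and 0.33, MT-ND4L at -0.35 and 0.34, the nuclear RNA NEAT1 at -0.52 and 0.59, TOMM6 at -2.81 and 2.94, SENP3-EIF4A1 at -2.999 and 1.79, HSPE1-MOB4 at -1.48 and 0.61, SKP1P1 at -1.23 and 1.60, RPL36A-HNRNPH2 at 1.46 and -0.41 and PCDHGB3 at 0.97 and -0.77.

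As lists, mitochondrially encoded transcripts had medians of -0.27 in T24 and 0.32 in 5637, non-polyadenylated and nuclear RNAs -0.31 and 0.16, small nucleolar RNAs -0.33 and 0.17 and clustered protocadherins 0.23 and -0.11.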

How the results depend on the processing

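No paired analysis was possible because each group had 1 library. Median-ratio scaling moved the median of all genes from 0.02 to -0.00051, giving 429 genes higher and 759 lower by 0.32, with 49.9% above 0 against 56%. Of 531 alternative list medians, 2 reversed, which means a change of sign of a median of 0.1 or more in size, 508 others lay within 0.1 of the value given, and 21 moved further. Smaller medians that changed sign, such as that of liver X receptor targets, are not among the 2. No named gene with a difference of 0.32 or more in size changed sign under either pseudocount, TPM or median-ratio scaling. The counts at 2-fold higher and lower and at 0.32 higher and lower were 60, 96, 885 and 953 with a pseudocount of 0.1, 6, 11, 125 and 247 with a pseudocount of 5, 48, 62, 832 and 806 with TPM, 12, 22, 259 and 348 with a filter at 5 FPKM (8517 genes), and 3, 9, 233 and 312 without exon-sharing genes (5996). TPM values are larger than FPKM, so the pseudocount of 1 weighs less.

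With a pseudocount of 0.1 the median was 0.35 for histone genes, -0.56 for small nucleolar RNAs and -0.30 for microRNA genes. With a pseudocount of 5 it was -0.20 for non-polyadenylated and nuclear RNAs and 0.098 for protocadherins. In that setting it was -0.17 for small nucleolar RNAs and -0.063 for microRNA genes. With TPM it was 0.36 for histone genes and -0.48 for small nucleolar RNAs. With a filter at 5 FPKM it was -0.24 for the EGFR list, -0.17 for small nucleolar RNAs and, reversed, 0.43 for microRNA genes. Without a filter it was -0.11 for the LY6 list, 0.070 for histone genes, 0.037 for protocadherins, -0.0027 for small nucleolar RNAs and -0.00039 for microRNA genes. Without exon-sharing genes it was -0.041 for liver X receptor targets, -0.27 for the EGFR list and -0.066 for YAP targets. In that setting it was -0.59 for non-polyadenylated and nuclear RNAs (1 gene), -0.46 for small nucleolar RNAs and, reversed, 0.017 for epithelial genes. Beyond these constructions, the cause was not tested. Depth limits short RNAs and genes near 1 FPKM most.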

Other observations

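Gene families were also formed from the root of the symbol, the letters before its first digit. Roots of histone, interferon-induced, small nucleolar and mitochondrial ribosomal genes repeat members of the lists above and are no separate support. Of 88 roots with 8 or more genes that share no exon, the root H had the highest median difference, 0.30, with 17 of 17 genes above 0. It holds histone genes, the histone pseudogenes H3P16, H3P36 and H3P6, and the unrelated H6PD, a dehydrogenase. Its members H2BC11 and H3P36 passed the filter only in the treated library. The root H was followed by the Krüppel-like transcription factors (KLF) at 0.24 with 6 of 9 above 0. Genes named KIAA were at 0.15, interferon-induced genes named IFI at 0.13 (7 of 8 above 0) and coiled-coil genes named CCDC at 0.13 (21 of 29). In 5637 the medians of these families were 0.17, -0.056, 0.084, 0.087 and 0.062. The lowest medians belonged to C/D box small nucleolar RNAs (SNORD) at -0.53 with 11 of 12 below 0, interleukins and their receptors (IL) at -0.24 with 6 of 9 below 0, SAMD genes at -0.18, long intergenic RNAs (LINC) at -0.13 and mitochondrial ribosomal proteins of the small subunit (MRPS) at -0.11.

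Other families were chosen after their values were seen. Kinesins (KIF), motors of spindles and cargo, were above 0 in 11 of 12 cases with a median of 0.12, Mediator subunits (MED) in 11 of 13 with 0.12 and vacuolar sorting proteins (VPS) in 13 of 14 with 0.082. Nucleoporins (NUP) and annexins (ANXA) were each below 0 in 9 of 10 cases, with medians of -0.077 and -0.096, and RNA helicases named DDX in 12 of 16 with -0.075. Each of these medians is smaller than 0.32, and none has a replicate.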
